A study of Canis lupus familiaris with 4 samples.

Results

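The interferon-induced antiviral genes described here are the dynamin-like GTPase gene MX1, the oligoadenylate synthetase genes OAS1, OAS2 and OAS3, and PSMB9, which encodes a catalytic subunit of the immunoproteasome. A probe was taken as a member where its accession is a dog RefSeq mRNA of one of 6 listed genes. This gave 10 probes, 2 for each of 5 genes, out of 43603 non-control probes on the array. No probe carried an accession that the naming table gives for MX2, the sixth gene, and MX2 was not analysed here; whether a probe with another accession detects it is not settled.

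The series compared canine mammary tumours of grade 3, labelled the most malignant, with tumours of grade 1, labelled less malignant. Each of 4 Agilent arrays held total RNA of both grades in 2 colours, with grade 3 in Cy5 on 2 arrays and grade 1 in Cy5 on the other 2. The titles name tumours, while the protocols describe canine cancer cells kept together with sorted monocytes for 72 h or longer and separated afterwards by a cancer cell stain, and the labels do not say which of these materials was hybridised. Neither breed, age nor treatment is given for either grade, and the labels call the arrays biological replicates without saying which share an RNA extract. All 4 arrays lay on 1 slide, and the spread between arrays that p-values rest on may thus be technical rather than biological.

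Interferons are secreted proteins that bind receptors on the cell surface and act through JAK kinases and STAT transcription factors to switch on a large set of antiviral genes. MX proteins trap viral nucleocapsids, and OAS enzymes sense double-stranded RNA and make short oligoadenylates that set off a block of viral growth. PSMB9 replaces a constitutive proteasome subunit when cells meet interferon gamma, which changes the peptides offered on class I MHC molecules. In tumours these genes can be expressed by the cancer cells and by the immune cells among them.

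Signal was ample for most of these probes and thin for 3 of them. Across arrays the median signal was 289 to 402 intensity units in Cy5 and 215 to 354.5 in Cy3, on median local backgrounds of 28 to 41 units, and 80.6% to 84.5% of probes were well above background. All 10 probes were well above background in both grades on all 4 arrays, and no spot was saturated. Of all probes, 35411 passed the filter on dim signal and were tested with a limma fit holding a grade term and a dye term. A probe is called lower or higher in grade 3 where its Benjamini-Hochberg adjusted p is under 0.05. Because so many probes were called, counts are set against that background.

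Of the 10 probes 8 were called lower in grade 3 and none higher, against 30.5% of all tested probes called lower, 31.1% called higher and 61.6% called in either direction. By their brightest probe 4 of the 5 genes were lower, MX1, OAS1, OAS2 and PSMB9, with OAS3 not called, while 46.1% of 921 named genes were called lower. At least 2-fold lower were 3 of the 10 probes, 1 of MX1 and 2 of OAS2, against 1.75% of all tested probes. The ratio lay below 0 on all 4 arrays for all 10 probes, which held for 28.3% of tested probes, and the levels of the grades did not overlap for 8 of them, against 21.3%. The genes were chosen with earlier results of these arrays known, so these counts describe them and are not independent support for a direction.

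**Figure D1:**
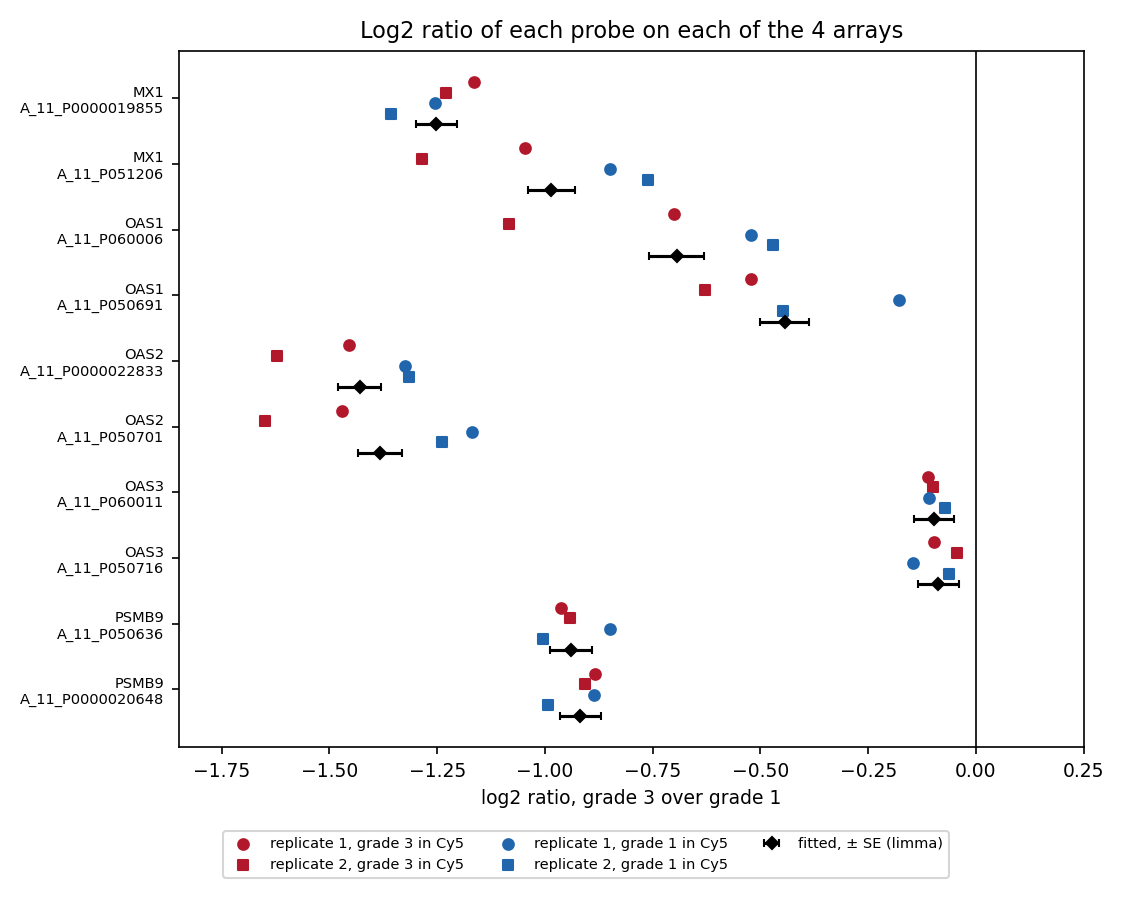
Log2 ratio of grade 3 over grade 1 (x axis) for each of the 10 probes (rows) on each of the 4 arrays, coloured by the grade that carried Cy5, with the fitted value ± SE from limma as a black diamond. All points lie left of 0; both OAS2 probes lie between -1.65 and -1.17 and both OAS3 probes between -0.15 and -0.05.

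MX1 was about 2-fold lower in grade 3 by both of its probes. On the brighter probe (A_11_P0000019855) the log2 ratio of grade 3 over grade 1 was -1.16 and -1.23 on replicates 1 and 2 with grade 3 in Cy5, and it was -1.26 and -1.36 on replicates 1 and 2 with grade 1 in Cy5. Its normalized level, a log2 intensity, was 13.26 ± 0.06 (SD, n = 4 arrays) in grade 3 and 14.51 ± 0.06 in grade 1. The highest grade 3 level, 13.32, lay well under the lowest grade 1 level, 14.44. The fitted log2 fold change was -1.25 ± 0.05 SE, or 2.38-fold lower (limma adjusted p = 2.87e-08), and 0.895% of tested probes had a value as low or lower.

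The dimmer MX1 probe (A_11_P051206) gave log2 ratios of -1.05 and -1.29 with grade 3 in Cy5 and -0.85 and -0.76 with grade 1 in Cy5. All 4 arrays again pointed the same way, but the dye orientations did not overlap, with means of -1.17 and -0.80. The fitted log2 fold change was -0.99 ± 0.05, or 1.98-fold lower (limma adjusted p = 3.14e-07). The level was 10.78 ± 0.12 (SD, n = 4) in grade 3 and 11.76 ± 0.11 in grade 1, without overlap.

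OAS2, the middle-sized synthetase of the family, had the lowest fitted value of the 5 genes. Its single-spot probe (A_11_P0000022833) had log2 ratios of -1.45 and -1.62 with grade 3 in Cy5 and of -1.32 and -1.32 with grade 1 in Cy5. The level was 12.72 ± 0.07 (SD, n = 4) in grade 3 and 14.15 ± 0.10 in grade 1, so that the grades lay far apart on every array. The fitted log2 fold change was -1.43 ± 0.05, or 2.69-fold lower (limma adjusted p = 1.51e-08), and 0.582% of tested probes were as low or lower.

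The other OAS2 probe (A_11_P050701) was printed as 5 spots on each array, which allowed the spread between spots to be set beside that between arrays. Its log2 ratios, averaged over spots, were -1.47 and -1.65 with grade 3 in Cy5 and -1.17 and -1.24 with grade 1 in Cy5, and the fit gave -1.38 ± 0.05, or 2.61-fold lower (limma adjusted p = 2.21e-08). The SD of the ratio between spots of 1 array was 0.03 to 0.06, while the SD between the 4 array means was 0.22. The arrays with grade 3 in Cy5 were the lower pair on both OAS2 probes, so the spread between arrays followed the dye orientation and was larger than the spotting error. Levels were 12.60 ± 0.12 (SD, n = 4) in grade 3 and 13.99 ± 0.11 in grade 1, without overlap.

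OAS1, the shortest synthetase, was lower by a smaller factor and with more spread. Its brighter probe (A_11_P060006) had log2 ratios of -0.70 and -1.08 with grade 3 in Cy5 and -0.52 and -0.47 with grade 1 in Cy5. Replicate 2 with grade 3 in Cy5 was the lowest, and the other 3 arrays lay between -0.70 and -0.47. The fit gave -0.69 ± 0.06, or 1.62-fold lower (limma adjusted p = 9.62e-06), and levels of 10.92 ± 0.20 (SD, n = 4) in grade 3 and 11.62 ± 0.11 in grade 1 did not overlap.

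The dim OAS1 probe (A_11_P050691) gave 149 to 202 intensity units in all channels. Its log2 ratios were -0.52 and -0.63 with grade 3 in Cy5 and -0.18 and -0.45 with grade 1 in Cy5, with replicate 1 with grade 1 in Cy5 nearest to 0. The fit gave -0.44 ± 0.06, or 1.36-fold lower (limma adjusted p = 9.10e-05), and the levels of the grades did not overlap. The size depended on the background correction. With the marked local backgrounds kept as measured it was -0.25 and not called (limma adjusted p = 0.15), whereas the scanner software's processed signals gave -0.69.

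OAS3, the longest synthetase, was not called by either probe. The first probe (A_11_P060011) had log2 ratios of -0.11 and -0.10 with grade 3 in Cy5 and -0.11 and -0.07 with grade 1 in Cy5, a fitted value of -0.10 ± 0.05 (limma adjusted p = 0.0925, 95% interval from -0.20 to 0.0060). The second (A_11_P050716), printed as 5 spots, had -0.10, -0.05, -0.15 and -0.06 on the same arrays in that order and a fitted value of -0.09 ± 0.05 (limma adjusted p = 0.135, 95% interval from -0.19 to 0.02). All 8 of these ratios were slightly below 0, but the levels of the grades overlapped for both probes.

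Both OAS3 probes were near the floor of the arrays, with 83.5 to 138 intensity units on local backgrounds of 26.7 to 44. The SD between spots of the second probe was 0.08 to 0.11 within an array, wider than the SD of 0.04 between array means, about the size of the fitted value itself. The offset of 50 units added to steady dim signals pulls the ratios of such probes toward 0 by construction. Without it, a setting chosen after seeing the data, the values were -0.17 (limma adjusted p = 0.0318) and -0.15 (limma adjusted p = 0.0595), and with median centring in place of loess both probes were called, at -0.16 and -0.16 (limma adjusted p = 0.0177 and 0.0203). The fitted values of OAS2 lay outside both intervals, but the intervals describe ratios that the offset pulls toward 0. They therefore do not bound the change in OAS3 RNA, and whether a decrease within them was called depended on the processing.

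PSMB9 was nearly 2-fold lower with a narrow spread between arrays. The brighter probe (A_11_P050636) had log2 ratios of -0.96 and -0.94 with grade 3 in Cy5 and -0.848 and -1.004 with grade 1 in Cy5. The other probe (A_11_P0000020648) had -0.88, -0.91, -0.89 and -0.99 on the same arrays, so that the orientations overlapped for both probes. The fitted values were -0.94 ± 0.05, or 1.92-fold lower (limma adjusted p = 2.22e-07), and -0.92 ± 0.05, or 1.89-fold lower (limma adjusted p = 2.04e-07). Levels of the brighter probe were 14.38 ± 0.07 (SD, n = 4) in grade 3 and 15.32 ± 0.07 in grade 1, without overlap.

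**Figure D2:**
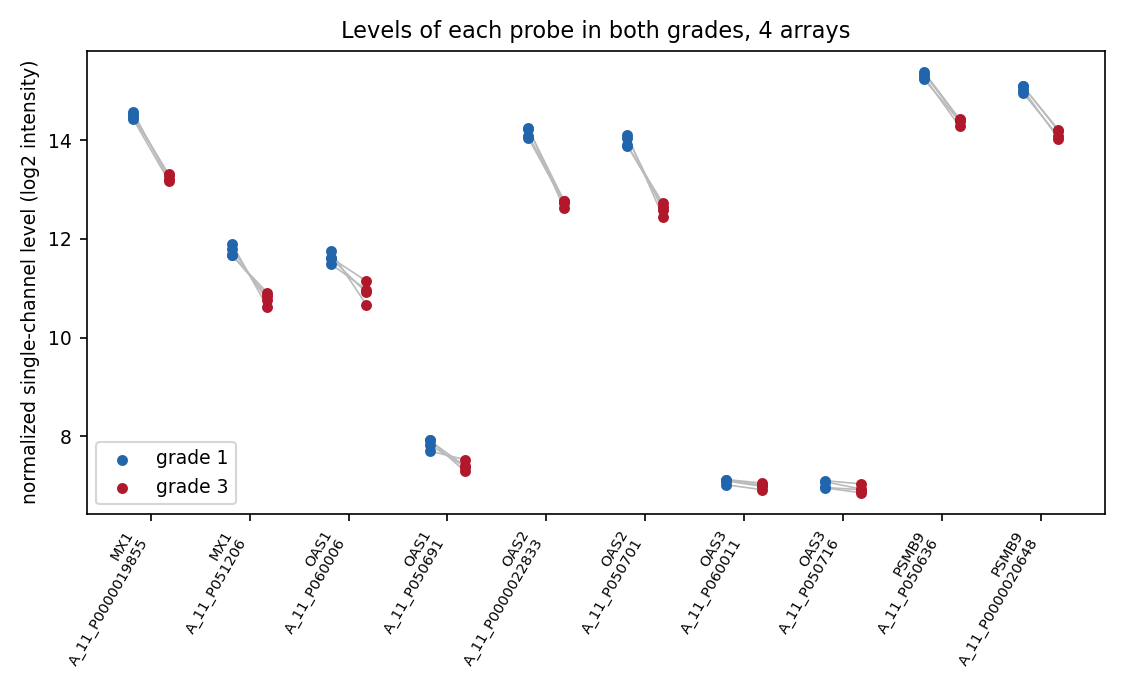
Normalized single-channel level (log2 intensity, y axis) of each probe in grade 1 (blue) and grade 3 (red), with grey lines joining the channels of 1 array. The grades do not overlap for the 8 probes of MX1, OAS1, OAS2 and PSMB9 and overlap for both OAS3 probes; heights of different probes are not comparable, since probes differ in how well they hybridise.

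Ranked by their brightest probe, the ratios ran from OAS2 (-1.43) through MX1 (-1.25), PSMB9 (-0.94) and OAS1 (-0.69) to OAS3 (-0.10). Differences between genes were taken on each array for all 10 pairs and tested with an exact sign-flip permutation test over 4 arrays, two-sided, which cannot go below p = 0.125. OAS2 and MX1 changed order between arrays: MX1 minus OAS2 was 0.18 ± 0.20 (SD, n = 4 arrays), and MX1 was the lower of the pair on 1 of 4 (exact permutation p = 0.25). PSMB9 and OAS1 also changed order, OAS1 minus PSMB9 being 0.24 ± 0.28 (SD, n = 4, exact permutation p = 0.25). These orders depended on the probe. On every array the dimmer MX1 probe had ratios above both OAS2 probes, and the dim OAS1 probe above both PSMB9 probes. The other 8 pairs kept their order on all 4 arrays (exact permutation p = 0.125, adjusted p = 0.156). Within the OAS family OAS1 minus OAS2 was 0.73 ± 0.14 and OAS2 minus OAS3 was -1.33 ± 0.14 (SD, n = 4), each larger than its spread between arrays. OAS3 was near the floor, where the offset pulls ratios toward 0, so the differences in its pairs carry that limit. No pair could pass a threshold of 0.05 in this design.

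The 3 OAS genes are immediate neighbours on 1 dog chromosome in the order OAS1, OAS3, OAS2 in the naming table, so the gene that was not called lies between those that were. OAS paralogs share sequence, as do MX1 and MX2, and whether a probe detects more than its own gene was not tested. PSMB9 lies in the MHC region, where the nearest 4 coding genes on either side include 4 that were measured. PSMB8, another immunoproteasome subunit gene, fell by 0.51 on the log2 scale, and the class II peptide-loading genes DLA-DMA and DLA-DOB had -0.71 and -0.99 (limma adjusted p = 2.97e-05, 9.16e-07 and 1.26e-07). BRD2, a chromatin reader gene in the same stretch, rose by 0.19 (limma adjusted p = 0.00668), so the neighbours did not all move one way.

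**Figure D3:**
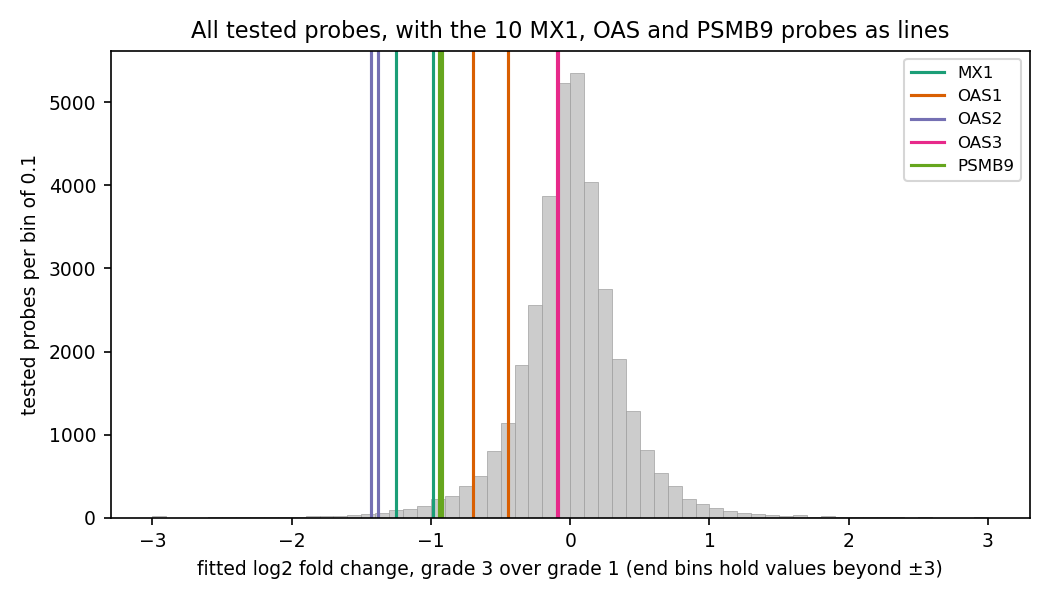
Number of tested probes per bin of 0.1 (y axis) by fitted log2 fold change of grade 3 over grade 1 (x axis) for all 35411 tested probes, with a vertical line for each of the 10 probes. The bulk of probes centres on 0, where the OAS3 lines stand, while the OAS2 and MX1 lines stand in the lower tail.

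The rest of the interferon pathway was sparsely named on this array: of 96 listed genes in 5 role lists, 15 had a named probe and 14 were tested. Of these 12 were lower, 2 were not called and none was higher, against 46.1% of named genes called lower. Among the 13 with signal above background in both grades, which leaves out IFNG, 11 were lower. The median of their log2 fold changes was -0.48, beside 0.0045 over all tested probes and -0.09 over named genes. With the marked local backgrounds kept as measured only 6 of the 14 were called, all lower, where 12.5% of all tested probes were lower. Scaling to the spike-in controls left 0 lower and 5 higher with a median of 0.13. On that scale 31296 of 35411 tested probes were called higher, with a median of 0.615.

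Both measured ligand genes were called lower, beside 46.1% of named genes, IFNG with a size that depended on the background correction. IFNG, the interferon gamma gene made by T and NK cells, had log2 ratios of -0.36 and -0.17 with grade 3 in Cy5 and of -0.42 and -0.36 with grade 1 in Cy5, and a fitted value of -0.33 ± 0.05 (limma adjusted p = 0.000351). It was well above background on 4 of 4 arrays in grade 1 but on 1 of 4 in grade 3, so it was tested only through grade 1. Its value was -0.86 with no offset and -2.00 with the processed signals. IFNA7, a type I interferon gene, had mean levels of 12.23 in grade 3 and 12.42 in grade 1. Whether its probe detects more than its own gene was not tested. The fitted value of IFNA7 was -0.19 ± 0.05 (limma adjusted p = 0.00792), and its call was lost without replicate 2 with grade 1 in Cy5 (limma adjusted p = 0.0788). Both calls were also lost with the marked backgrounds kept as measured, at -0.17 for IFNG and -0.27 for IFNA7 (limma adjusted p = 0.193 and 0.0942), and with median centring IFNA7 turned to 0.05.

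Among receptors and signalling genes only SOCS3, a feedback inhibitor of JAK signalling, was named, and it fell by 0.46 on the log2 scale (limma adjusted p = 5.87e-05). Of the sensors TLR7, an endosomal receptor for single-stranded RNA, had -0.39 and TLR9, the receptor for unmethylated DNA, had -0.27, both lower (limma adjusted p = 0.000106 and 0.00290). MAVS, the adaptor of the cytosolic RNA sensors, had -0.03 ± 0.05 (limma adjusted p = 0.643) by its brighter probe and 0.15 (limma adjusted p = 0.0304) by the other. The calls of SOCS3, TLR7 and TLR9 were lost with the marked backgrounds kept as measured (limma adjusted p = 0.132, 0.0764 and 0.185).

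All 3 measured effector genes outside the MX and OAS families were lower, beside 46.1% of named genes, and values are given for 2 of them. Scaling to the spike-in controls left 0 of the 3 lower and 0 higher, with a median of -0.016. EIF2AK2, the kinase PKR that stops translation on double-stranded RNA, was 1.58-fold lower (log2 fold change -0.66 ± 0.05, limma adjusted p = 2.26e-06), though not called with the marked backgrounds kept as measured (-0.44, limma adjusted p = 0.0563). CXCL10, a chemokine induced by interferon gamma, was 1.54-fold lower (-0.63 ± 0.05), with ratios between -0.69 and -0.56 on the 4 arrays.

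In class I antigen processing, the pathway that PSMB9 serves, 4 of 5 measured genes were lower, beside 46.1% of named genes. The class I genes DLA-79 and DLA-64 were 1.74-fold and 1.60-fold lower, TAPBP, the tapasin gene that links class I molecules to the peptide transporter, 1.42-fold, and PSMB8 1.42-fold. The 3 DLA-64 probes ranged from -1.20 to -0.65, and such polymorphic paralogs can share probe signal. CANX, the chaperone calnexin, had -0.09 ± 0.05 (limma adjusted p = 0.108) by its brighter probe and 0.23 (limma adjusted p = 0.00215) by the other. PSMB9 at -0.94 thus lay lower than each of these 5 genes by their brightest probes. Those differences were not tested.

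**Figure D4:**
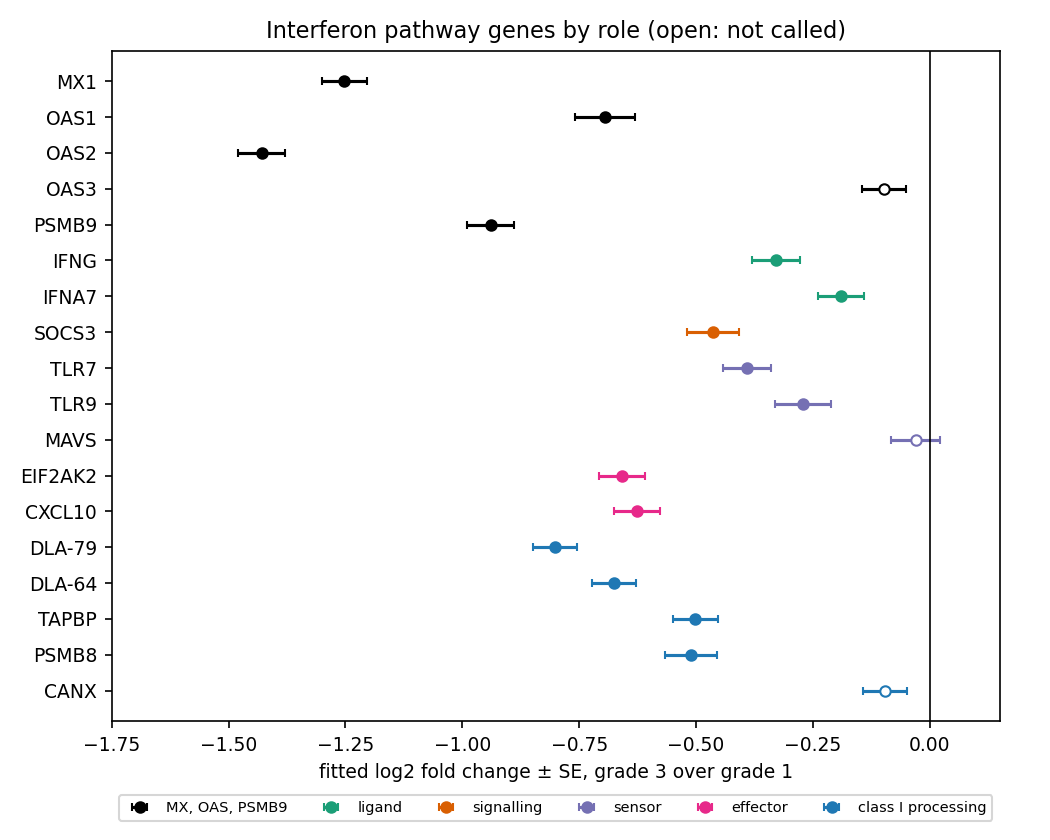
Fitted log2 fold change ± SE of grade 3 over grade 1 (x axis) for MX1, the OAS genes and PSMB9 (black) and for 13 other pathway genes by role (colours), each by its brightest probe; open circles were not called. OAS2 and MX1 lie lowest, and the 13 others lie between -0.80 and -0.03.

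Most measured markers of immune cells were also lower, in counts to be read against the 46.1% of named genes and 30.5% of probes called lower. Of 16 listed macrophage and monocyte genes 6 were measured and 5 were lower, CD80 not being called by its brighter probe (-0.03) but lower by the other (-0.61, limma adjusted p = 7.06e-06). Their median value was -0.99 (log2 fold change), and their mean level was 11.07 to 11.16 over arrays in grade 3 and 11.91 to 11.98 in grade 1. CD163, a scavenger receptor of macrophages, fell by 1.14 on the log2 scale, and the monocyte chemokine gene CCL2 and the costimulatory gene CD86 had fitted values of -1.04 and -0.94. All 6 of 14 listed T and NK cell genes that were measured were lower, with a median of -0.42 and mean levels of 7.40 to 7.46 in grade 3 and 7.92 to 8.04 in grade 1; CTLA4, CD8A and CD4 had -0.77, -0.36 and -0.17. None of these 6 was called with the marked backgrounds kept as measured, and the call of CD4 was lost without replicate 2 with grade 1 in Cy5 (limma adjusted p = 0.0728).

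Both measured B cell genes of 5 listed were lower, beside 46.1% of named genes, MS4A1 at -1.55 and CD38 at -0.48. Their mean levels were 8.65 to 8.94 in grade 3 and 9.62 to 9.89 in grade 1. MS4A1, the CD20 gene, was not called with the marked backgrounds kept as measured (-0.91, limma adjusted p = 0.0769), and the processed signals gave -2.32. No measured immune marker was below background on any array, but some were dim, MS4A1 among them. Its mean level was 6.89 in grade 3 and 8.44 in grade 1, beside 6.99 and 6.93 for the OAS3 probes in grade 3. In bulk RNA fewer cells of a type and less RNA per cell cannot be told apart, and the part of immune cell content in the values of MX1, the OAS genes and PSMB9 was not tested.

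Other cell types did not share one direction. Of 12 listed epithelial genes 4 were measured, with mean levels of 10.68 to 11.05 in grade 3 and 10.04 to 10.17 in grade 1. Of these 2 were higher, against 221 of 921 named genes called higher. They were the trefoil peptide gene TFF3 at 1.86 and the mucin gene MUC1 at 1.18 (named after its value was seen). CLDN3 and ERBB2 had 0.11 and -0.03 and were not called. Keratin genes and CDH1 were not analysed here. The 4 measured genes were well above background, but they are too few to settle a mammary epithelial identity of the samples. Of 7 listed fibroblast and matrix genes 5 were measured and 4 were lower, against 46.1% of named genes, with a median of -0.54 and mean levels of 13.94 to 14.12 in grade 3 and 14.51 to 14.62 in grade 1. PDGFRB was not called by its brighter probe (0.08) and was lower by the other (-0.16, limma adjusted p = 0.0127). By their brightest probes the collagen genes COL1A1 and COL1A2 had -1.16 and -0.54 and the proteoglycan gene DCN -0.34. The other COL1A1 probes had -0.80, -0.49 and -0.40. Its brightest probe had -1.47 and -1.80 with grade 3 in Cy5 and -0.65 and -0.73 with grade 1 in Cy5. The brightest COL1A2 probe was lower on both arrays with grade 1 in Cy5 (-1.28 and -1.17). With grade 3 in Cy5 it had -0.06 and 0.32, and its call was lost without a dye term (limma adjusted p = 0.149). The other COL1A2 probes had fitted values from -0.64 to -0.55.

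Of all other named genes, those whose 4 ratios lay nearest to the mean of the 5 genes, in Euclidean distance over 4 arrays, included CEACAM23, ANGPT2, BIRC3 and CTSS, 4 of the nearest 5. That mean was -0.88 and -0.996 with grade 3 in Cy5 and -0.81 and -0.84 with grade 1 in Cy5. The adhesion molecule gene CEACAM23 lay 0.063 from it, the vascular ligand gene ANGPT2 0.13, the apoptosis inhibitor gene BIRC3 0.15 and the lysosomal protease gene CTSS 0.16. Their fitted values lay between -0.93 and -0.90. These genes were picked for this likeness, so the values are a description, and the call of CEACAM23 was lost with the marked backgrounds kept as measured (limma adjusted p = 0.0644).

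How each array is scaled set the size of all these values. Loess and median centring both take the middle of an array's probes as unchanged, and median centring moved the members toward 0 except for OAS3, to -1.19 for OAS2, -1.02 for MX1, -0.71 for PSMB9 and -0.46 for OAS1 by their brightest probes. The 320 spike-in control spots, Agilent's control RNAs, had a median log2 ratio between -0.82 and -0.23 on the 4 arrays, and centring on them moved the median of all tested probes from 0.0045 to 0.615. On that scale 6 of the 10 probes were still called lower, those of OAS2, MX1 and PSMB9, at -0.82 to -0.31, but only 2.87% of all tested probes were. The brighter OAS1 probe then had -0.08 (limma adjusted p = 0.466) and the dim one turned to 0.17 (limma adjusted p = 0.143). Both OAS3 probes turned to 0.51 and 0.52 and were called higher (limma adjusted p = 6.14e-06 and 4.04e-06). So were 31296 of all 35411 tested probes, whose median of 0.615 lay above both OAS3 values. The spike-in shift of an array is common to all its probes, so calls on that scale are not independent of each other. All values given elsewhere are relative to the other probes of the same array.

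**Figure D5:**
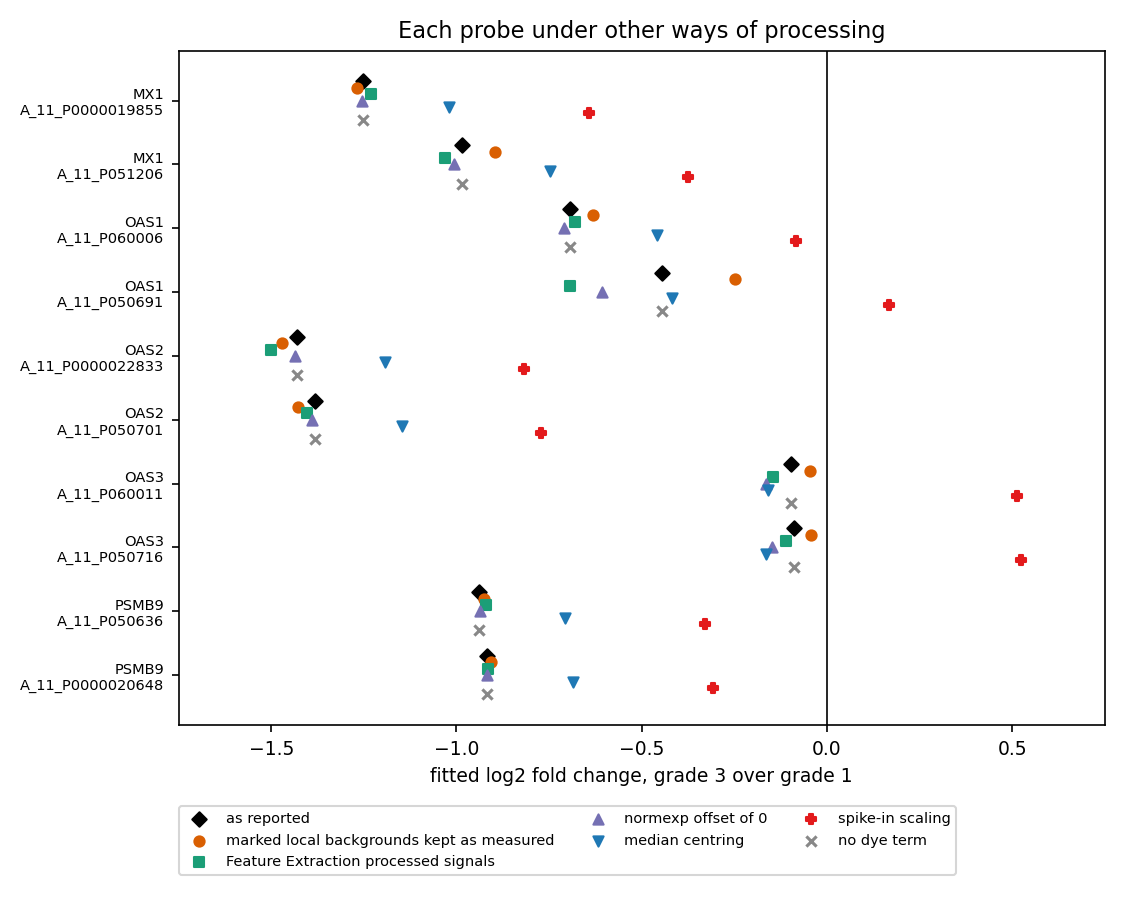
Fitted log2 fold change of grade 3 over grade 1 (x axis) of each of the 10 probes as reported (black diamonds) and under 6 other ways of processing. The OAS2, MX1 and PSMB9 probes stay below 0 throughout, whereas spike-in scaling (red crosses) moves the dim OAS1 probe to 0.17 and both OAS3 probes above 0.5.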

How the data were processed

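Agilent Feature Extraction, version 10.7.3.1, had read the spots, as the submitters' processing notes list it. Per the file headers, the deposited median, background and processed signals are linear intensity values. The deposited LogRatio column is the log10 of Cy5 over Cy3, per the file headers. The deposited series table holds the same log10 ratios turned to grade 3 over grade 1, differing by at most 4.99e-06, with a median of 0 on each array.

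R 4.3.3 and limma 3.58.1 were used. Local backgrounds marked as outliers by the scanner software, 151 to 2352 per array and channel, were set to the channel's median on that array; then normexp (offset 50) and loess were applied, control spots having weight 0. Between 11 and 39 spots per array with an outlier mark were left out, and spots of 1 probe were averaged. The fit (a grade and a dye term, two-sided) took probes that 1 grade or both had well above background on every array (2 residual and 7.50 prior degrees of freedom). Levels are single-channel values after Aquantile. Precision is limited by the number of arrays.

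Probes were named through RefSeq mRNA accessions in the naming table (assembly UU_Cfam_GSD_1.0), which matched 1644 of 43603 probes (3.77%); its coordinates served only to order neighbouring genes. A gene is given by its brightest tested probe. The genes and lists, and the replacement of marked backgrounds, were chosen with earlier results of these data known. Named were the 5 genes, up to 6 measured genes per pathway list by smallest p, the 3 brightest per marker list and the 5 nearest genes; PSMB9's neighbours DLA-DMA, DLA-DOB and BRD2 were added after their values were seen. A pair of named genes is counted but not reported here. Alternatives were other background, scaling, dye, replicate and filter settings and each array left out.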

Additional observations from a re-analysis of the deposited data

Results flagged for a closer look

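The 4 ratios of 41 results (the 10 probes and 31 named genes) were searched by Dixon's criterion for an array far from the others. Chance meets it in about 1 of 20 groups, and 3 genes met it, while none of the 10 probes of MX1, OAS1, OAS2, OAS3 and PSMB9 did. MAVS stood at -0.20 on replicate 1 with grade 3 in Cy5, whereas its other ratios were 0.02, 0.03 and 0.02, a gap of 0.94 of the whole range. CTLA4 stood at -0.57 on replicate 2 with grade 3 in Cy5, its other ratios being -0.84, -0.84 and -0.82, a gap of 0.907 of the range. TFF3 stood at 1.45 on that array, where the remaining ratios were 1.97, 1.97 and 2.03, a gap of 0.89 of the range.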

How the results depend on the processing

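Under 15 or 16 alternatives per probe the 6 probes of MX1, OAS2 and PSMB9 stayed lower and called, with fitted log2 values from -1.50 to -0.31. The count of 8 probes called lower was 7 with the marked backgrounds kept as measured, 10 with median centring, 6 with spike-in scaling and 9 with an offset of 0, the last chosen after seeing the data; leaving out each array gave 8 to 8. With spike-in scaling 2 of the 10 probes were called higher. On that scale 31296 of all 35411 tested probes were called higher and 1016 lower, beside which the spike-in counts below are to be read. Of 14 pathway genes, 12 lower as reported, 6 were lower with marked backgrounds kept as measured, 1 was higher with median centring, and 0 were lower and 5 higher with spike-in scaling. Of 23 marker genes, 17 lower and 2 higher as reported, 9 were lower with marked backgrounds kept as measured, 6 were higher with median centring, and 7 were lower and 10 higher with spike-in scaling. Spike-in scaling turned the dim OAS1 probe to 0.17, the OAS3 probes to 0.51 and 0.52, IFNG to 0.28, IFNA7 to 0.42, SOCS3 to 0.15, TLR7 to 0.22, TLR9 to 0.34, MAVS to 0.58, TAPBP to 0.11, PSMB8 to 0.10, CANX to 0.52, CD8A to 0.25, CD4 to 0.44, CD38 to 0.13, ERBB2 to 0.59, COL1A2 to 0.066 and DCN to 0.27, by construction a shift of every probe. Median centring turned IFNA7, MAVS, CANX and ERBB2 to 0.054, 0.11, 0.15 and 0.21, of which CANX and ERBB2 were called. Leaving out each array gave MAVS values from -0.086 to 0.026, the highest without replicate 1 with grade 3 in Cy5, and ERBB2 values from -0.052 to 0.0012, the highest without replicate 2 with grade 3 in Cy5; neither was called. Over all probes, the marked backgrounds kept as measured gave 4418 lower and 2328 higher against 10800 and 11029 as reported, and median centring 8835 and 15630, the share of calls that were higher being 63.9% against 50.5% as reported. With the replicate number as a block 8 probes were called lower, 12 pathway genes and 17 marker genes. Differences between replicates 1 and 2 correlated at -0.0909 between the dye orientations. That value does not settle whether same-numbered arrays share an RNA extract. Averaging same-numbered arrays also left 8 called. The causes were not tested beyond what a setting's construction shows. Low signal limits what can be said of OAS3, the dim OAS1 probe, IFNG and dim immune markers such as MS4A1.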
